A study of Mus musculus with 6 samples.

Results

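B cell and plasma cell genes were read in tumours that grew from GLMT1 cells in mice with or without tenascin-C. All probe sets of an Affymetrix array whose only gene symbol was one of 8 listed genes (Ms4a1, Cd79a, Cd79b, Pax5, Igha, Ighm, Mzb1 and Pou2af1) were taken, which gave 22 of the 45037 probe sets tested. Another 4 probe sets name Ighm together with other genes and were left out. GLMT1 cells, a line whose name stands for a lung metastasis tumour of the GRS/A strain, were placed beneath the back skin of male mice. The hosts were GRS/A-TgH(TnC) mice deficient in the matrix glycoprotein tenascin-C (TNKO, 3 tumours) or GRS/A wild-type mice (WT, 3 tumours). Their age is given as 8 weeks in the design text and as 10 weeks for each sample. The tumour cells of both groups came from the same line, which the labels do not describe as lacking Tnc, and no sorting of cells is described, so RNA of host cells within the excised tissue was measured with that of the tumour.

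B cells detect antigen with a membrane antibody, whose signals pass through the paired chains CD79A and CD79B. After activation some become plasma cells, which make secreted antibody in large amounts and lose much of the surface equipment of a B cell. IgA, the class whose heavy chain Igha encodes, is the antibody of mucosal surfaces and milk, and the J chain links IgA units into dimers and IgM units into pentamers. In bulk tissue, fewer cells of a type and less RNA per cell cannot be told apart.

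The table holds log2 values, a scale taken from their range, with small differences from array to array. Over the 6 tumours a span of 5.46 millionths of a unit was the median, and 0.553% of probe sets spanned more than 0.01. A difference in these units can therefore not be read as a fold. Values are given as deposited, as the distance from the WT mean, and in multiples of the residual SD, which is each probe set's spread within the groups. Array medians lay between 6.5674 and 6.5698, the highest being that of TNKO tumour 3. Differences are TNKO minus WT throughout. They were tested with limma across all probe sets, with Benjamini-Hochberg adjustment and a threshold of 0.05. An exact permutation test over the 20 splits of 3 against 3 tumours cannot go below p = 0.1, the two-sided value that each Igha probe set reached. Every probe set whose groups do not overlap reaches it, among the members also Cd79a and 1 probe set each of Ms4a1 and Ighm.

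In each of the 3 probe sets of the antibody chain Igha, the lowest TNKO tumour lay above the highest WT tumour, with adjusted p-values between 0.0702 and 0.0758 that missed the threshold. The other 19 probe sets, of the other 7 members, differed by 0.036 to 43.3 millionths of a unit in size. Among them was that of the antibody assembly gene Mzb1, with 0.869 millionths. None of the 22 member probe sets passed, against 0.175% of all probe sets. At an unadjusted p under 0.05 there were 5, all higher in TNKO tumours, against 20.3% of all probe sets in either direction and 9.53% higher. The groups did not overlap in 6 of the 22, higher in TNKO in each, against 14.2% of all probe sets higher and 13.8% lower. That count was 10 without WT tumour 2, and 2 after either quantile normalization or subtraction of array medians. The share of all probe sets under these settings is not given here. With 3 against 2 tumours groups are apart more easily, so the 14.2% does not apply to the 10. By probe set, 17 of 22 differences lay above 0, against 54.4% of all, with a median of 0.891 millionths against 0.0997 millionths over all probe sets. The single gene Igha gave 3 of the 5 and 3 of the 6. By brightest probe set, 1 of the 8 members had an unadjusted p under 0.05 by limma, against 18.4% of all genes. The groups were apart and higher in 2 of the 8, against 15% of all genes.

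Igha encodes the constant region of the IgA heavy chain. Its brightest probe set, 1425763_x_at, had values of 6.9205, 6.9182 and 6.9181 in TNKO tumours 1 to 3, against 6.9111, 6.9081 and 6.9075 in WT tumours 1 to 3. Every TNKO tumour lay above every WT tumour, and the gap between the groups was wider than the range within either. The difference was 0.010 (SE 0.00127), or 6.02 residual SDs (limma, adjusted p = 0.0715). The second probe set, 1421653_a_at, stood at 6.6012, 6.5988 and 6.5999 in TNKO tumours, against 6.5904, 6.5870 and 6.5852 in WT tumours, a difference of 0.0124 (SE 0.00155; limma, adjusted p = 0.0702). The third, 1429381_x_at, stood at 6.79185, 6.79182 and 6.79178 in TNKO tumours, against 6.79116, 6.79098 and 6.79073 in WT tumours. Its difference of 0.000861 (SE 0.000117; limma, adjusted p = 0.0758) was smaller in units and of like size in residual SDs, at 5.64. Probe sets whose name ends in x_at can bind related transcripts as well, and the heavy chain classes are related in sequence. Across the 6 tumours the 3 Igha probe sets correlated with r from 0.985 to 0.996, a description over 6 points, in which the probe sets were read on the same arrays.

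Over the 6 tumours the 3 Igha probe sets had the widest spans of the 22. No more than 0.497%, 0.455% and 1.63% of all probe sets spanned more than the Igha probe sets 1425763_x_at, 1421653_a_at and 1429381_x_at. The other 19 member probe sets spanned at most 138 millionths. No order of RNA amounts follows from this order of spans. Of the 22 probe sets, 6 had a mean level above the median of all values (6.568), all of them of Igha or Ighm. The brightest probe sets of the other members lay below it, from 5.598 for Pou2af1 to 6.535 for Mzb1, with Cd79a at 5.898. Whether these levels limited the differences was not tested.

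**Figure D1:**
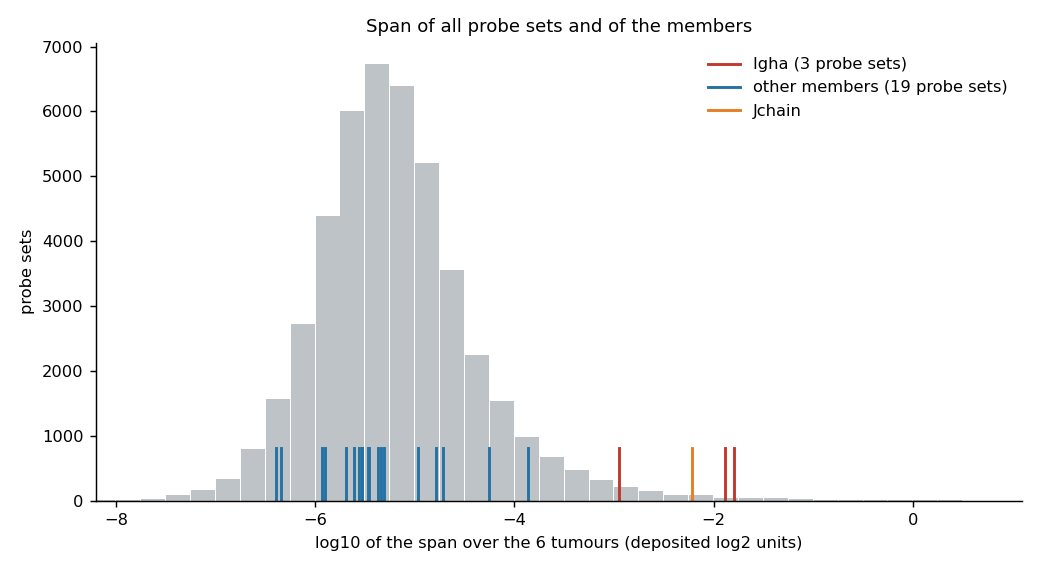
Number of probe sets (vertical axis) by the log10 of their span over the 6 tumours in deposited log2 units (horizontal axis), with ticks for member probe sets and Jchain. The 3 Igha ticks and the Jchain tick lie in the right tail, and the other 19 member ticks lie at or below 138 millionths.

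Jchain, which encodes the joining chain of polymeric IgA and IgM, is no member and was read as one of 18 measured genes of a plasma cell list of 19. It stood at 5.8037, 5.8039 and 5.8044 in TNKO tumours, against 5.8003, 5.7997 and 5.7984 in WT tumours. The groups did not overlap, and the difference was 0.00457 (SE 0.000551), or 6.33 residual SDs (limma, adjusted p = 0.0702). Its correlation with the Igha probe sets ran from 0.966 to 0.990 over the 6 tumours, the gap between the groups included. Light chains pair with the heavy chain in every antibody. Of 13 immunoglobulin probe sets with several symbols, 11 were higher and 2 lower in TNKO tumours, against 54.4% of all probe sets higher. The groups did not overlap in 5 higher and 1 lower, against 14.2% and 13.8% of all probe sets. None passed the threshold. From these 13, the 3 that carry Igkc among the symbols of several kappa genes were chosen after their values were seen. No single gene can be named from them. The other kappa probe sets with several symbols differed by -0.143 to 5.63 millionths. The probe set 1427660_x_at had values of 6.942, 6.943 and 6.948 in TNKO tumours, against 6.896, 6.877 and 6.844 in WT tumours, a difference of 0.0721 (SE 0.0144; limma, adjusted p = 0.113). The probe set 1452417_x_at had values of 6.446, 6.450 and 6.459 in TNKO tumours, against 6.411, 6.396 and 6.360 in WT tumours, a difference of 0.0629 (SE 0.0146; limma, adjusted p = 0.133). In both, the 3 TNKO tumours lay close together and above the 3 WT tumours, which were spread more widely. In 1427455_x_at the groups were also apart, by 0.00169 (SE 0.000177; limma, adjusted p = 0.0645), or 7.30 residual SDs.

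**Figure D2:**
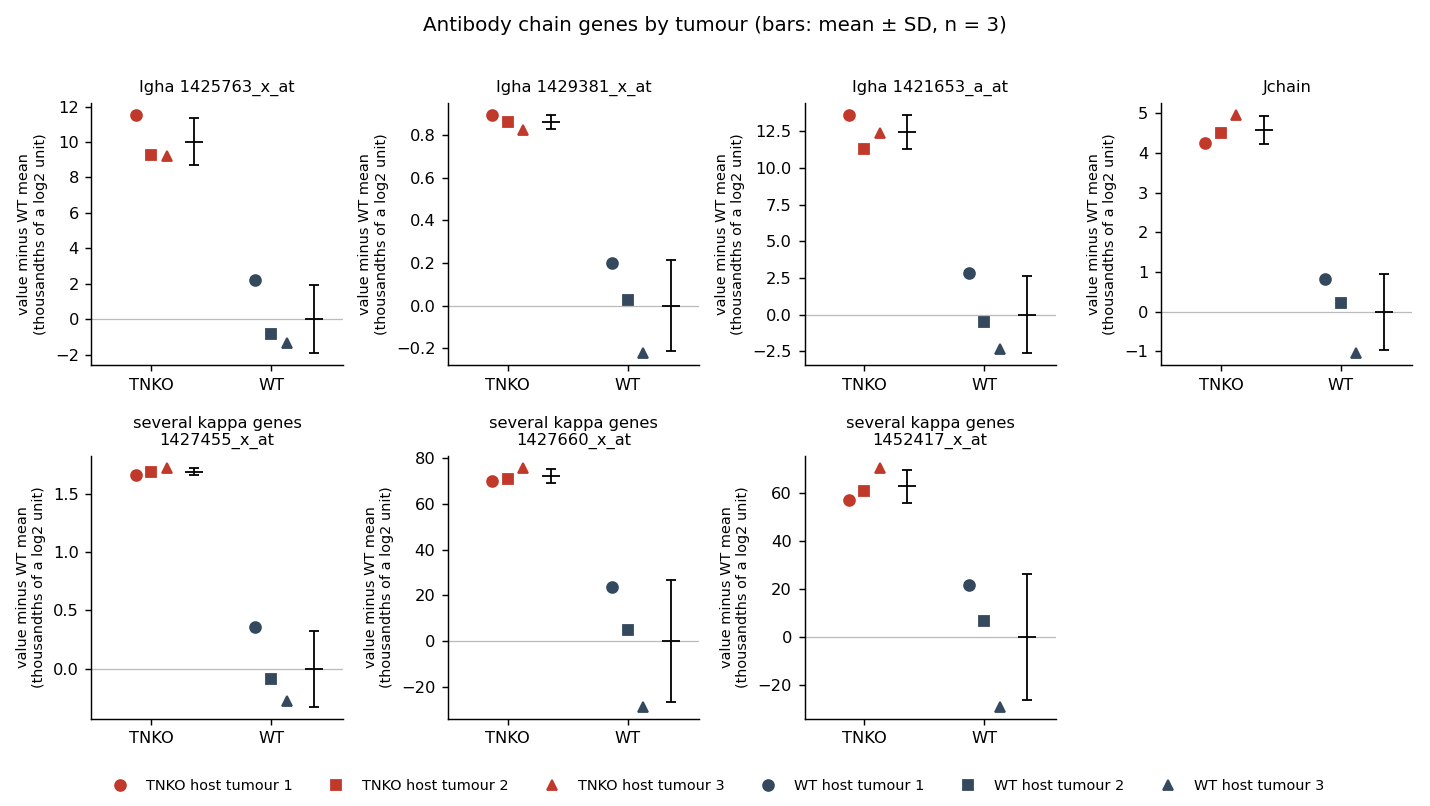
Value minus the WT mean in thousandths of a deposited log2 unit (vertical axes, each with its own range) for each TNKO and WT tumour, in the 3 Igha probe sets, Jchain and 3 probe sets of several kappa genes. Points are tumours and bars the mean ± SD (n = 3 each). In all 7 panels the TNKO tumours lie above the WT tumours.

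Within the WT group, tumour 1 stood above tumour 2 and tumour 2 above tumour 3 in all 7 of these probe sets. The same order of the 3 WT tumours was found in 15.7% of all probe sets. The 7 correlated with each other at r from 0.9275 to 0.9962 over the 6 tumours, so they are not 7 separate readings. Within the TNKO group the order was not shared. Tumour 1 was the highest TNKO tumour in the 3 Igha probe sets, and tumour 3 in Jchain and the 3 kappa probe sets. Among the 29 other probe sets with 1 immunoglobulin symbol, 23 were higher and 6 lower in TNKO tumours, against 54.4% of all probe sets higher. The groups did not overlap in 6 higher and 1 lower, against 14.2% and 13.8% of all probe sets. None passed the threshold, and 5 of 29 had an unadjusted p under 0.05, all of them higher, against 20.3% of all probe sets in either direction and 9.53% higher. The kappa variable gene Igkv8-30 differed by 0.000626 (SE 0.000106; limma, adjusted p = 0.0963) and the brighter probe set of Igkv19-93 by 7.26e-05 (SE 1.43e-05; limma, adjusted p = 0.111). The dimmer probe set of Igkv19-93 differed by 0.511 millionths, with groups that overlapped (limma, adjusted p = 0.651). Probe sets with the sole symbol Igk ran from -3.65 to 8.21 millionths, and the groups overlapped in each. The 3 probe sets of Igkv9-120 ran from -0.172 to 11.7 millionths. The median of these 29 was 0.757 millionths. Many variable-gene probe sets share sequence with each other, so they are not independent readings.

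Of the antigen receptor genes, Ighm encodes the constant region of the IgM heavy chain, the first class that a B cell makes. Its 11 probe sets did not move together: 6 were higher and 5 lower in TNKO tumours, from -43.3 to 11.5 millionths, with adjusted p-values from 0.156 to 0.921. The annotation gives them all the symbol Ighm, and where each lies in the gene was not used here. The brightest, 1427870_x_at, lay -1.40, 2.47 and 3.54 millionths from the WT mean in TNKO tumours, against 0.967, -0.307 and -0.659 millionths in WT tumours. TNKO tumour 1 was the lowest of the 6 and the groups overlapped. The probe set with the widest span, 1427351_s_at, lay -11.6, -55.5 and -62.7 millionths from the WT mean in TNKO tumours, against 49.9, -87.7 and 37.8 millionths in WT tumours. There the WT tumours held both the highest and the lowest value. The groups were apart in 1 of the 11, 1425385_a_at, which differed by 11.5 millionths (SE 3.03; limma, adjusted p = 0.156).

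The signalling chain Cd79a had 1 probe set, which lay 0.412, 0.371 and 0.119 millionths above the WT mean in TNKO tumours, against -0.0383, -0.00433 and 0.0427 millionths in WT tumours. The groups did not overlap, but the whole range was 0.45 millionths, and 94.9% of all probe sets spanned more (limma, adjusted p = 0.52). Its partner Cd79b lay 0.438, 0.141 and -0.471 millionths from the WT mean in TNKO tumours, against 1.56, -1.19 and -0.377 millionths in WT tumours. All TNKO tumours lay within the WT range, and the difference of 0.036 millionths (SE 0.828) was the smallest of the members (limma, adjusted p = 0.99). It turned negative without TNKO tumour 1, TNKO tumour 2, WT tumour 2 or WT tumour 3, the lowest value being -5.57e-07.

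Some promoters are shown because the octamer ATGCAAAT, the letters through which Pou2af1 acts with its partners, is the textbook element of antibody gene promoters. Jchain stands for a gene of secreted antibody and Cd79a for one of the receptor. RefSeq promoters (GRCm38.p6) were held for 3 of the 8 members and for Jchain, and the 250 bases before the start were searched on both strands for ATGCAAAT, for the Ets letters AGGAAGT and for the E-box CAGGTG. Capitals mark matches, which do not overlap each other. The first sequence, of Cd79a, is chr7:24897247-24897496 on the plus strand, and that of Jchain is chr5:88527898-88528147 on the minus strand, both written 5′ to 3′ along the gene.
Cd79a: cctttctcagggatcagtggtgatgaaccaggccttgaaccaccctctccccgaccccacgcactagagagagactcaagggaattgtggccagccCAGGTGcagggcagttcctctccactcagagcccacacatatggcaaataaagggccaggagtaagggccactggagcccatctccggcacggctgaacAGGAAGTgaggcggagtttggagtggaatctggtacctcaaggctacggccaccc
Jchain: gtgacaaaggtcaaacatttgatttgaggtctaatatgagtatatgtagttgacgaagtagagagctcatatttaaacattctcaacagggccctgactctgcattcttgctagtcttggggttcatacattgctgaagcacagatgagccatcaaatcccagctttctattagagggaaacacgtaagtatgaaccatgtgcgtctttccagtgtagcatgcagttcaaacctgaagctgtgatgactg
The Cd79a window holds AGGAAGT starting 55 bases before the start and CAGGTG starting 154 bases before it. Those of Jchain, Pax5 and Pou2af1 hold none of the 3 in these letters. Of 32851 mouse promoters 1.6% hold the octamer, 7.69% the Ets letters and 17.2% the E-box within the same length. A match is a description and not a binding site.

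Ms4a1 encodes CD20, a membrane protein of mature B cells that plasma cells lack. Its brighter probe set lay -6.97, 3.39 and 9.39 millionths from the WT mean in TNKO tumours, against -1.88, 2.74 and -0.861 millionths in WT tumours. TNKO tumours were both the highest and the lowest, and without TNKO tumour 3 the difference turned negative (-1.79e-06). The dimmer probe set, 1450912_at, lay 2.07, 2.22 and 1.64 millionths above the WT mean in TNKO tumours, against 0.272, 0.457 and -0.730 millionths in WT tumours. Here the groups were apart, by 1.98 millionths (SE 0.434) or 3.96 residual SDs (limma, adjusted p = 0.124).

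**Figure D3:**
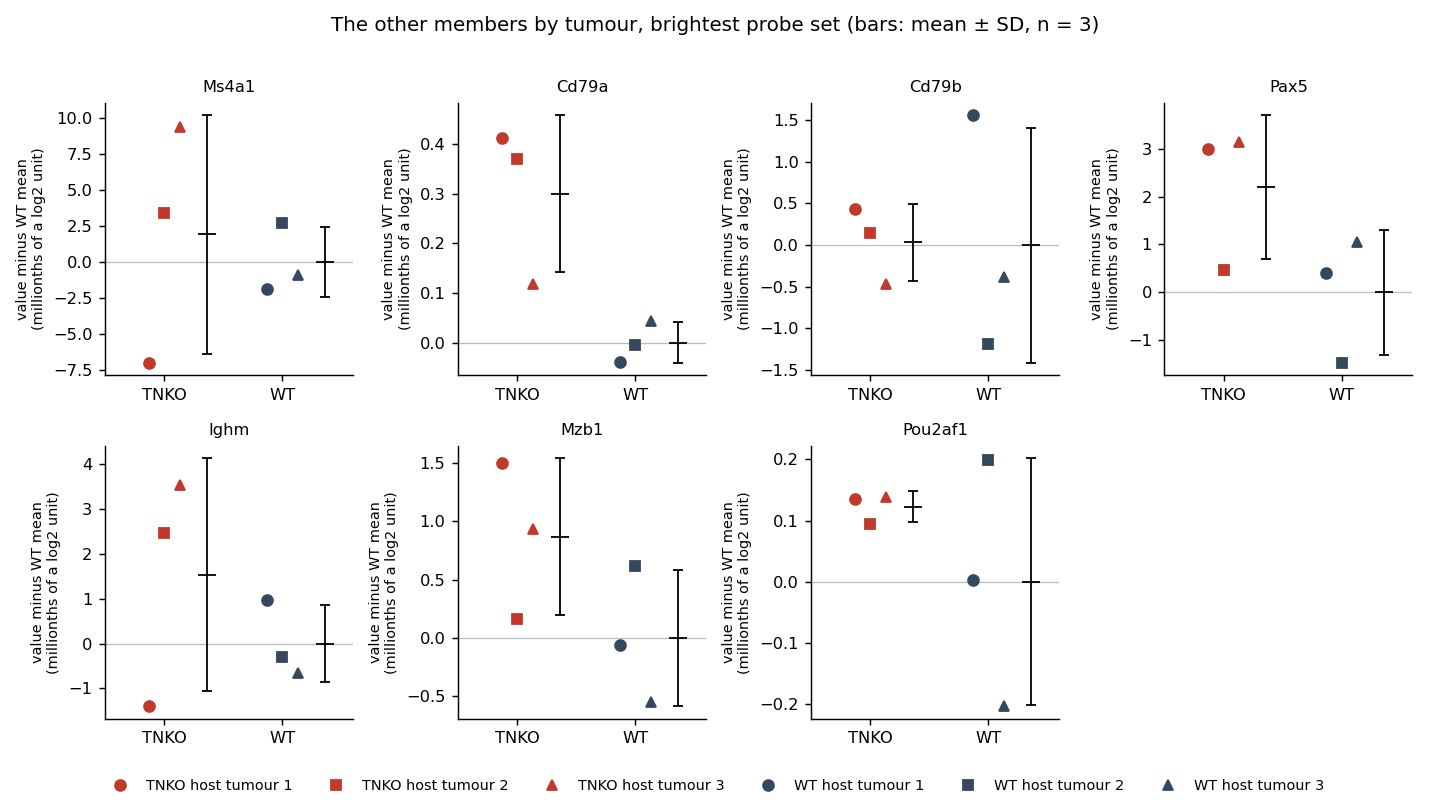
Value minus the WT mean in millionths of a deposited log2 unit (vertical axes, each with its own range) for each TNKO and WT tumour, in the brightest probe set of the 7 members other than Igha. Points are tumours and bars the mean ± SD (n = 3 each). Only in Cd79a do the groups not overlap, within a range of 0.45 millionths.

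Pax5, the transcription factor that commits cells to the B lineage, was measured by 2 probe sets, in which the groups overlapped. The brighter lay 2.99, 0.473 and 3.15 millionths above the WT mean in TNKO tumours, against 0.407, -1.47 and 1.06 millionths in WT tumours (limma, adjusted p = 0.348). TNKO tumours 1 and 3 were the highest, and TNKO tumour 2 fell within the WT values. Pou2af1 encodes a coactivator of the octamer-binding factors that act at antibody gene promoters. It lay 0.136, 0.0937 and 0.139 millionths above the WT mean in TNKO tumours, against 0.00367, 0.200 and -0.203 millionths in WT tumours, with all TNKO tumours inside the WT range (limma, adjusted p = 0.823). Mzb1, an endoplasmic reticulum protein that helps antibody assembly in marginal zone B cells and plasma cells, lay 1.503, 0.166 and 0.939 millionths above the WT mean in TNKO tumours, against -0.0633, 0.615 and -0.551 millionths in WT tumours. TNKO tumours 1 and 3 were above all WT tumours and TNKO tumour 2 was not (limma, adjusted p = 0.426).

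**Figure D4:**
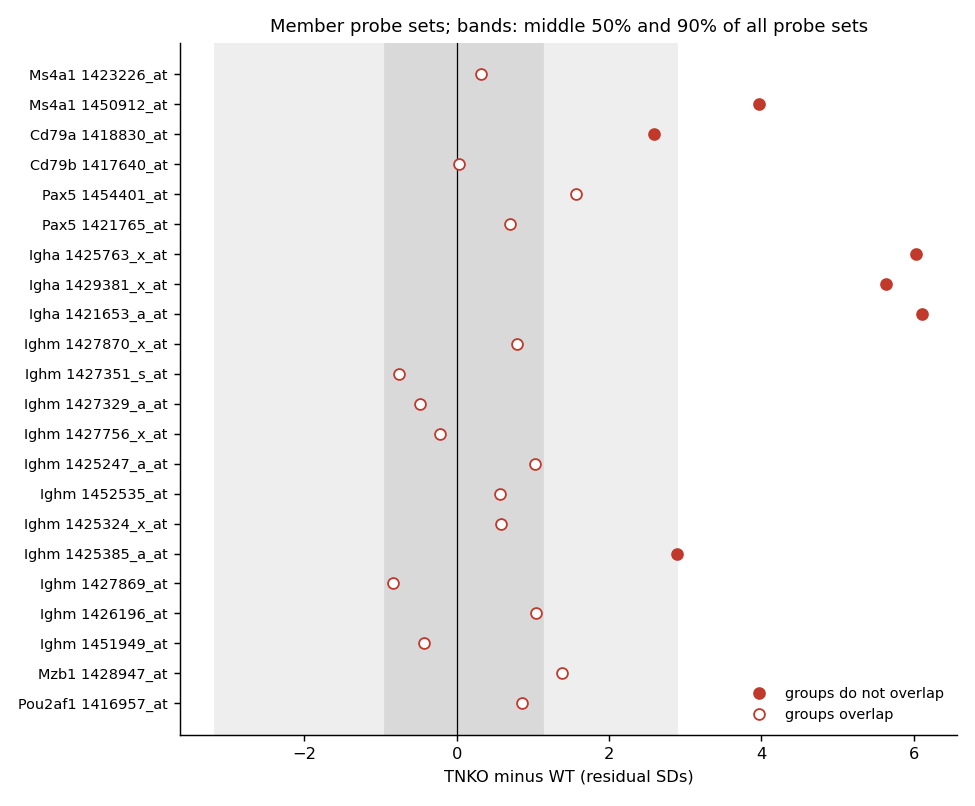
TNKO minus WT in residual SDs (horizontal axis) for each of the 22 member probe sets (rows), filled where the groups do not overlap; the bands hold the middle 50% and 90% of all probe sets. The 3 Igha probe sets lie between 5.64 and 6.11, and 1 of Ms4a1 at 3.96 is the next.

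Among other genes of the B cell lineage, none passed the threshold in any of 4 lists, against 0.121% of all genes by their brightest probe set. Of 21 measured surface and signalling genes 9 were higher and 12 lower in TNKO tumours, against 57.6% of all genes higher. Of the 21, 2 had an unadjusted p under 0.05, against 18.4% of all genes. The median difference of the 21 was -0.0523 millionths, against 0.200 millionths over all genes. The groups did not overlap in 2 higher and 1 lower, against 15% and 11.1% of all genes. Cr2, a complement receptor of B cells and follicular dendritic cells, differed by 12.8 millionths (SE 4.77; limma, adjusted p = 0.24), and H2-Ob, which tunes peptide loading of class II molecules in B cells, by -16.2 millionths (SE 3.48; limma, adjusted p = 0.122). Of 15 regulators and early B cell genes 9 were higher and 6 lower, against 57.6% of all genes higher, with a median of 0.406 millionths. Bach2, a repressor that delays plasma cell fate, differed by 8.03 millionths (SE 1.504; limma, adjusted p = 0.105), Pou2f2, an octamer-binding factor, by 2.21 millionths and Bcl6, the regulator of germinal centres, by -15.1 millionths.

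Of 18 measured plasma cell genes 8 were higher and 10 lower in TNKO tumours, against 57.6% of all genes higher. Their median was -0.049 millionths, against 0.200 millionths over all genes. The groups were apart in Jchain and in Txndc5, both higher, against 15% of all genes apart and higher. Txndc5, a protein disulphide isomerase gene, differed by 3.98 millionths (SE 1.15; limma, adjusted p = 0.176). Tent5c (-128 millionths), Prdm1 (-68.0), Edem1 (-16.7) and Sdc1 (-6.73) were lower and Fkbp11 (21.0) higher. Their groups overlapped, with adjusted p from 0.334 to 0.563 by limma. Xbp1, which drives the secretory programme, differed by 0.167 millionths (limma, adjusted p = 0.92), Irf4, a regulator of plasma cell fate, by -0.105 millionths (limma, adjusted p = 0.86), and Tnfrsf17, the survival receptor BCMA, by 0.0173 millionths (limma, adjusted p = 0.98). Xbp1 and Irf4 are used by other cells as well, and which cells gave the RNA of the listed genes was not tested. Of 15 survival factors, lymphoid chemokines and IgA transport genes 6 were higher and 9 lower, against 57.6% of all genes higher. Tnfsf13b, which encodes the B cell survival factor BAFF, stood at 7.0089, 7.0092 and 7.0094 in TNKO tumours, against 7.0100, 7.0096 and 7.0101 in WT tumours. It was lower in every TNKO tumour, by -0.000740 (SE 0.000196; limma, adjusted p = 0.157). Cxcl13, the chemokine that draws B cells into follicles, spanned 0.0323 with overlapping groups (limma, adjusted p = 0.788), and Pigr, the receptor that carries IgA across epithelia, differed by 0.242 millionths (limma, adjusted p = 0.639).

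**Figure D5:**
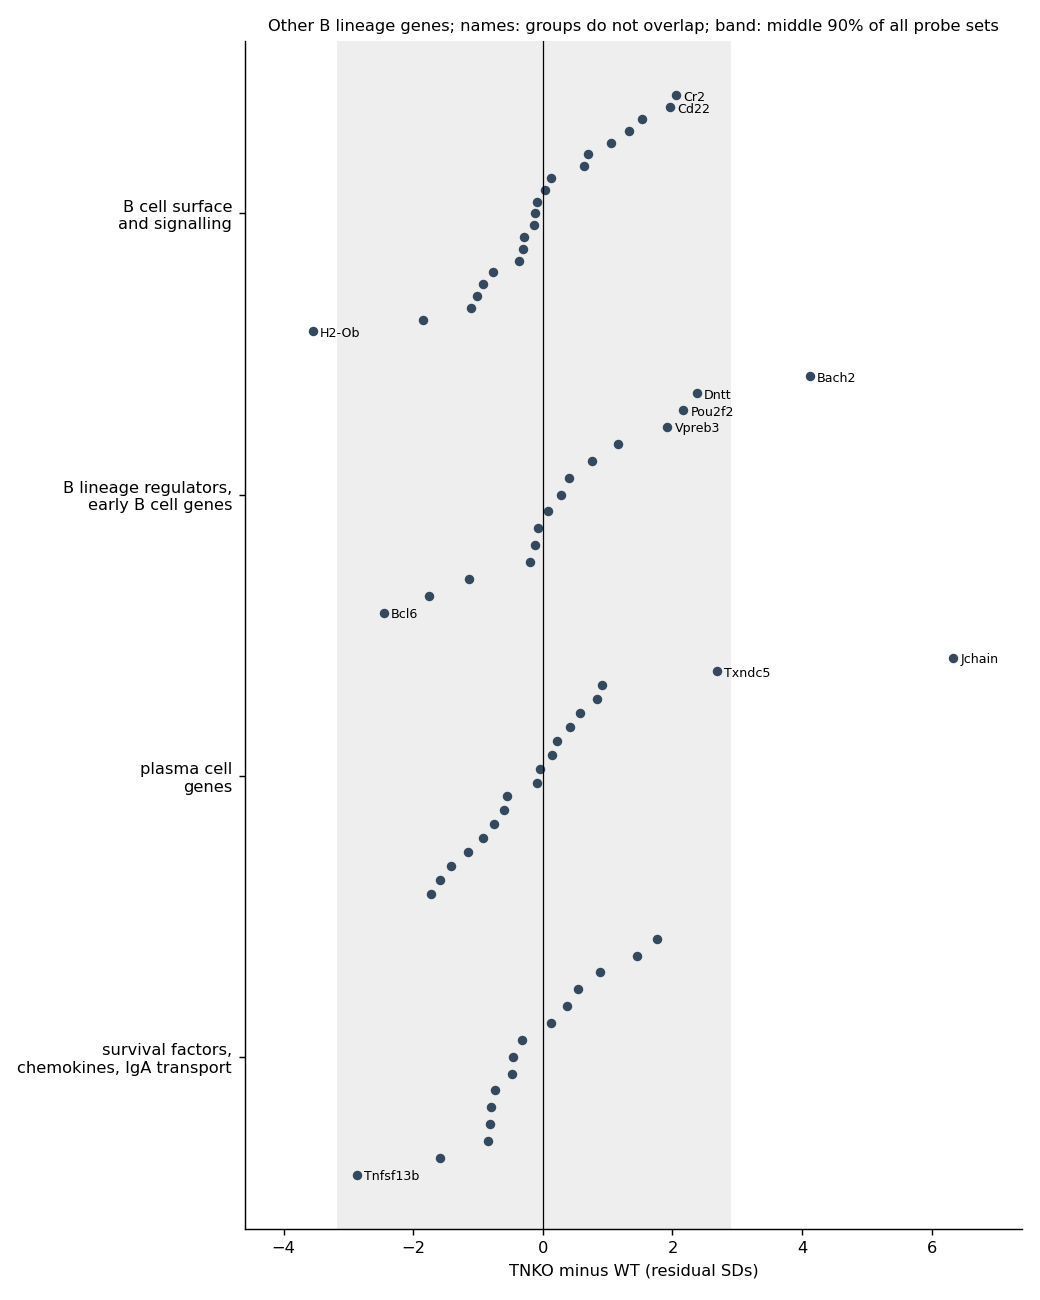
TNKO minus WT in residual SDs (horizontal axis) for the measured genes of 4 B lineage lists (rows), each point a gene by its brightest probe set. Genes whose groups do not overlap are named, and the band holds the middle 90% of all probe sets; Jchain, at 6.33, lies farthest to the right.

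Over the 178 other genes whose brightest probe set spanned at least 0.01, the pattern most like that of Igha 1421653_a_at across the 6 tumours was that of Wfdc17 (r = 0.975), followed by Ccl6 (0.876), Mgst1 (0.857), Fabp4 (0.853) and Lpl (0.830). Wfdc17 stood at 8.335, 8.331 and 8.331 in TNKO tumours, against 8.320, 8.320 and 8.314 in WT tumours. Fabp4 and Lpl are genes of adipocytes. The probe sets compared were read on the same 6 arrays, and likeness over 6 points is a description only.

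Markers of other cells were read in the same tumours, and none passed the threshold, against 0.121% of all genes. Over all genes 57.6% were higher in TNKO means, and 15% were higher with groups that did not overlap. All 4 measured of 6 adipocyte markers were higher in TNKO means, with summed levels of 30.5 to 32.8 in TNKO tumours and 29.2 to 31.0 in WT tumours, TNKO tumours 1 and 2 being the highest. All 7 of 7 skeletal muscle markers were lower (44.67 to 49.71 in TNKO tumours, 48.65 to 49.995 in WT tumours), and all 6 of 6 hair markers were higher in TNKO means (36.4 to 46.6 in TNKO tumours, 36.4 to 36.5 in WT tumours). TNKO tumour 3 was the highest tumour in each hair marker, and the groups did not overlap in Krt31 and Msx2. Macrophage markers, 8 of 10 of them higher, summed to 98.7186 to 98.7193 in TNKO tumours and 98.7138 to 98.7185 in WT tumours, and lymphatic markers, 5 of 5 higher, to 36.1965 to 36.1974 in TNKO tumours and 36.1948 to 36.1955 in WT tumours. The sums did not overlap, which rested on 1 gene in each list. The mannose receptor gene Mrc1 differed by 0.00207 (SE 0.00135; limma, adjusted p = 0.459), and without it the macrophage sums were 90.20304 to 90.20324 in TNKO tumours and 90.20278 to 90.20322 in WT tumours. Without Lyve1, which differed by 0.00158, the lymphatic sums were 28.83861 to 28.83916 in TNKO tumours and 28.83857 to 28.83871 in WT tumours, so both lists then overlapped. Pan-leukocyte markers, 3 of 5 higher, summed to 47.69681 to 47.69687 in TNKO tumours and 47.69676 to 47.69690 in WT tumours, and T cell and NK cell markers, 8 of 12 measured higher, to 75.51689 to 75.51717 in TNKO tumours and 75.51678 to 75.51719 in WT tumours. Of plasmacytoid dendritic cell markers 3 of 6 measured were higher, of epithelial markers 1 of 5 and of red cell markers 2 of 2, and the sums of the 2 groups overlapped in each. None of the markers in these lists was at 0, but no tested probe set had a mean level of 0. That a marker was detected can therefore not be read from this. The part of any of these markers in the Igha difference was not tested. Without TNKO tumour 3, where the hair genes were high, Igha differed by 0.0104 (limma, adjusted p = 0.141), and without TNKO tumour 1 by 0.00924 (limma, adjusted p = 0.182).

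The controls for hybridisation carry no RNA of the mouse, and 18 of 18 such probe sets had a higher TNKO mean, by 0.173 to 61.4 millionths. In 16 of these 18 the groups did not overlap, higher in TNKO, against 14.2% of all probe sets tested. The 6 actin and Gapdh control probe sets differed by up to 402 millionths in size. The member probe sets differed by 0.036 to 43.3 millionths outside Igha and by 861 to 12439 millionths in Igha. Whether the controls and the members moved for a shared reason was not tested. The brightest probe sets of the 8 members had a higher TNKO mean in 8 of 8 as deposited, against 57.6% of all genes, but both quantile normalization and subtraction of array medians turned 7 of them to lower values and left Igha higher, at 0.00933 and 0.00924. Subtracting medians moves every difference by the same amount, with the median of all at -0.000764, so the sign of a difference of millionths was fixed by that step and says nothing about the gene. Under either scaling the groups were apart in 2 of the 3 Igha probe sets, in 2 of the 3 kappa probe sets and in Jchain, and the adjusted p of Igha was 0.588 and 0.990 by limma.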

How the data were processed

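RNA of 6 tumours was measured on 1-colour Affymetrix arrays. The authors deposited 1 log2 value per probe set and array, already normalized, for 45101 probe sets; the log base was taken from the range of the values. Per the submitters' processing notes, R 2.7.2 was used. How probes were summarized and arrays normalized is not given in the sources used here. The labels carry no batch. Between 21 and 43 values were identical between any pair of arrays, so none was taken as a copy.

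Without 64 control probe sets, 45037 were tested. By the platform annotation 34945 had 1 gene symbol, 932 several and 9160 none. The brightest probe set stood for a gene in counts over 18193 genes. TNKO was compared with WT with lmFit and eBayes of limma 3.58.1 under R 4.3.3, two-sided, with Benjamini-Hochberg adjustment over all probe sets. Of 152 genes in 15 lists, 139 were measured. The members and lists were chosen with earlier results of these data known. Named genes were drawn from all members, from up to 5 genes by smallest p and up to 5 by widest span in each list and among other immunoglobulin genes, and from the 5 genes most like the member probe set with the widest span. Named outside this rule, after their values were seen, are the kappa probe sets and Xbp1, Irf4, Tnfrsf17 and Pigr. The fit was tested on simulated data in which 50 probe sets were moved by each of 4 sizes: it called 6 of those moved by 5 residual SDs, 36 for 10, 49 for 20 and 50 for 40, and made 4 false calls over 45037. Alternatives were other scalings, variance models, a level filter, a replicate block, each tumour left out, and the mean over a gene's probe sets. The number of arrays limits the precision.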

Additional observations from a re-analysis of the deposited data

How the results depend on the processing

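No member passed the threshold in limma as deposited or under any of 14 alternatives, with 5 of 22 at an unadjusted p under 0.05 as deposited. Igha stayed higher in TNKO tumours under all 14, between 0.00777 and 0.0111, with adjusted p from 0.0516 to 0.990, and with a tumour left out between 0.00924 and 0.0111. The alternatives for Jchain were added after the data were examined, and it stayed higher in all 13, between 0.00381 and 0.00498. Of all probe sets 79 were called as deposited, 0 with quantile normalization (593 at an unadjusted p under 0.05), 285 above the median level and 0 with the replicate block (7816 at an unadjusted p under 0.05), and 0 to 73 with a tumour left out (0 without WT tumour 1 or WT tumour 3, with 7144 and 6807 at an unadjusted p under 0.05, and 1, 4 and 6 without TNKO tumours 1, 2 and 3). The member probe sets with groups apart and higher, 6 as deposited, were 2 with quantile normalization, 2 with array medians subtracted, 3 above the median level, where 6 of the 22 were kept, and 6 to 10 with a tumour left out, the most without WT tumour 2. Those lower, 0 as deposited, were 3 with quantile normalization and 0 to 2 with a tumour left out. Shares of all probe sets under these settings are not given here, and with fewer tumours groups are apart more easily. No excess can be read from these counts.

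Quantile normalization and subtraction of array medians shifted the median over all probe sets to -0.000538 and -0.000764. Under quantile normalization the brightest probe sets were at -0.00045 for Ms4a1, -0.00048 for Cd79a, -0.000492 for Cd79b, -0.000414 for Pax5, -0.000696 for Ighm, -0.00054 for Mzb1 and -0.000228 for Pou2af1. With medians subtracted they were at -0.000762 for Ms4a1, -0.000763 for Cd79a, -0.000764 for Cd79b, -0.000762 for Pax5, -0.000762 for Ighm, -0.000763 for Mzb1 and -0.000764 for Pou2af1. With a tumour left out Cd79b ran from -5.57e-07 to 8.17e-07 and Ms4a1 from -1.79e-06 to 6.39e-06, and the mean over its probe sets put Ighm at -3.3e-06. Subtracting medians moves every probe set by the same amount, and for the other reversals the cause was not tested. With the replicate block Igha differed by 0.010 (adjusted p = 0.142). The deviations of tumours with the same number correlated at 0.0319, -0.0162 and 0.00797, so the numbers were not taken as pairs.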

Other observations

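Of all probe sets, 128 had a difference at least as high as that of the brightest Igha probe set. Among these, 7 also had an unadjusted p under 0.05 and groups that did not overlap. They were 2 probe sets of Igha, 2 of several kappa genes, those of Wfdc17 and Ccl6, and 1 without a gene symbol (1447329_at). Ccl6, a chemokine gene of myeloid cells, stood at 8.954, 8.949 and 8.945 in TNKO tumours, against 8.942, 8.942 and 8.934 in WT tumours (difference 0.0101, SE 0.00362; limma, adjusted p = 0.229). This count was made after the values were seen and is a description of these 6 arrays.

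Lyve1, a receptor of lymphatic vessels and of some macrophages, stood at 7.3584, 7.3579 and 7.3583 in TNKO tumours, against 7.3568, 7.3569 and 7.3561 in WT tumours. The groups did not overlap, and the difference was 0.00158 (SE 0.000277; limma, adjusted p = 0.0994). Prox1, the transcription factor that defines lymphatic endothelium, differed by 0.123 millionths (limma, adjusted p = 0.834), and the lymphatic growth factor receptor gene Flt4 by 8.93 millionths (limma, adjusted p = 0.732).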
